A study of Mus musculus with 2 samples.

Results

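The 10 genes followed here encode chemokines and cytokines: Ccl3, Ccl4, Ccl5, Xcl1, Ifng, Tnf, Lta, Tnfsf8, Tnfsf14 and Il16, chosen by name. All 10 of 10 were among the 12798 genes of the table, and all 10 had counts enough to be tested over all cells. The CD8 T cells came from the lamina propria of the colon of Rag1 KO hosts, which make no mature T or B cells of their own. The donors of these CD8 T cells (TCRb+CD8b+CD4-, from spleen) were Bcl6fl/flCd8aCre or Bcl6fl/fl mice. Both sets of hosts also got naive wild-type CD4+CD45RBhighCD25- T cells, which cause colitis in such hosts. Cells were collected 6 to 10 weeks after transfer, and the labels give an age of 8 to 12 weeks when the transfer began. In both donors loxP sites flank part of Bcl6, a transcriptional repressor, and only the Bcl6fl/flCd8aCre donors carry a Cre driven by Cd8a sequences. Single cells were counted with a 5′ droplet kit in 1 pooled gene-expression library, with hashtag antibodies telling the samples apart. The annotation names 4 hashtags Crep and 4 Cren. These were read as Cre-positive and Cre-negative, a reading that no source spells out. Whether a hashtag stands for 1 mouse is not stated, so p-values speak only of hashtag-to-hashtag spread.

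The table held 4157 Crep and 4405 Cren cells, with 2635241 to 4201265 UMIs (unique molecules counted) per hashtag. Bcl6 itself had 32.4, 29.9, 30.5 and 24.3 CPM (counts per 1000000 UMIs) in Crep hashtags 1 to 4, against 16.7, 17.6, 15.4 and 20.5 CPM in Cren hashtags 1 to 4. It was thus higher in the group read as Cre-positive (log2 fold change 0.75 ± 0.14 SE, edgeR adjusted p = 0.0293). The 5′ counts name no exon, so they do not check the deletion, and all directions below are between groups as labelled. The CD8 T cell markers summed to 4616 to 5110 CPM in Crep hashtags and 4016 to 4687 CPM in Cren hashtags, with all 5 of 5 detected. Of 12 myeloid markers 11 were detected, at 196 to 295 CPM in Crep and 241 to 319 CPM in Cren. Ccl3, a gene that myeloid cells also make, was at 89.3 CPM in cells with a myeloid marker UMI and 87.4 CPM in the other cells. None of 3 mast cell markers was in the table, and 4 of 6 B and plasma cell markers were not. The median mitochondrial share per cell was 0.615% to 0.65% in Crep hashtags and 0.67% to 0.805% in Cren hashtags, and its part in the results was not tested.

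Chemokines are small proteins that draw leukocytes along a gradient, and cytokines carry signals between cells. Activated CD8 T cells make CCL3, CCL4 and CCL5, which draw T cells and myeloid cells, and XCL1, which attracts the XCR1-bearing dendritic cells that cross-present antigen. IFN-γ raises antigen presentation and is a central cytokine of intestinal inflammation. TNF and lymphotoxin α (Lta) act on TNF receptors, Tnfsf8 encodes CD30 ligand and Tnfsf14 encodes LIGHT, which binds HVEM and the lymphotoxin β receptor. These last ligands are made as membrane proteins, so that secreted describes them only in part. Il16 encodes a precursor whose cleaved C-terminal part acts on CD4.

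The genes lie on 6 chromosomes of GRCm38 in GENCODE. Ccl5 (chromosome 11, 83525778 to 83530518, minus strand), Ccl3 (83647844 to 83649355, minus) and Ccl4 (83662584 to 83664683, plus) form a cluster, and Tnf (chromosome 17, 35199381 to 35202007, minus) neighbours Lta (35203165 to 35205351, minus). The RefSeq span of Ccl4 starts at 83648624 and so covers part of Ccl3. The strand setting of the authors' counting is not given in the sources used here, so UMIs of Ccl3 and Ccl4 may not be fully separated. A set of 5 genes was more than 5 times as abundant in a small cell cluster described below (fine cluster 11) as in the other cells and had a promoter in the RefSeq table (GRCm38.p6), though Ifng was so only through 1 cell. Their 250 bases before the annotated start are shown 5′ to 3′ on the gene's strand, with capitals marking matches on either strand to GGAAA (the NFAT core), TATAAA (the TATA box) and TTCNNGGAA or TTCNNNGAA (STAT- and BCL6-like).
Xcl1 (chr1:164935523-164935772, minus strand): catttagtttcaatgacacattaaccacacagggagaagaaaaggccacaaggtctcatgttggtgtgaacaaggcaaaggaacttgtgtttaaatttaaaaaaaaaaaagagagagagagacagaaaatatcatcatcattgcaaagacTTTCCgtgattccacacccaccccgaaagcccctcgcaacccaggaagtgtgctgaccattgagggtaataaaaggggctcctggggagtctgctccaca
Ccl3 (chr11:83649379-83649628, minus strand): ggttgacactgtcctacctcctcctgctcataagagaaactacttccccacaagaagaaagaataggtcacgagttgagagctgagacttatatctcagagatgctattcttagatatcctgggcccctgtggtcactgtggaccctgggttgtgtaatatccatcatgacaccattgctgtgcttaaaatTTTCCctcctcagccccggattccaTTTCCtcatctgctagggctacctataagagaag
Ifng (chr10:118440796-118441045, plus strand): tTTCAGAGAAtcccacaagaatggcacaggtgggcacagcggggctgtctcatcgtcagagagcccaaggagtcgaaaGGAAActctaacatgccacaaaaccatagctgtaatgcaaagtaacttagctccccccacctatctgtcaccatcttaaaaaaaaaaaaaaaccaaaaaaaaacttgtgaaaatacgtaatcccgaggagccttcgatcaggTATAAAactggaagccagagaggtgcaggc
Lta (chr17:35205352-35205601, minus strand): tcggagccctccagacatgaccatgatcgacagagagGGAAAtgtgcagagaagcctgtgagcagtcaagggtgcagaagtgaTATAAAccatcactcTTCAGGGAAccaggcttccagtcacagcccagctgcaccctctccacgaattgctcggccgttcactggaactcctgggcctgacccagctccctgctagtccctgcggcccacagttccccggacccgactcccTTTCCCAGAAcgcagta
Tnfsf14 (chr17:57194182-57194431, minus strand): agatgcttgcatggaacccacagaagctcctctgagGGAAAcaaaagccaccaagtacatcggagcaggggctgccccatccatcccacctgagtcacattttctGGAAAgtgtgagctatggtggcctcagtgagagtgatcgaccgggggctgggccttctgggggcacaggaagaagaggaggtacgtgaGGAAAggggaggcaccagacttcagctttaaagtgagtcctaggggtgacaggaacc

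GGAAA stood in all 5 windows, and also in 55.6% of the 32851 mouse promoter windows of the same length. TATAAA stood in the windows of Ifng, 30 to 25 bases before the start, and Lta, and in 12.4% of all windows. The Ifng window matched TTCNNNGAA once, and the Lta window matched it at 2 places, both of which also matched TTCNNGGAA on one of the strands. These motifs were in 7.02% and 4.06% of all windows. The NF-κB-like motif GGGNNTTCC (4.98% of windows), also searched with 3 bases in place of 2 in its middle (4.65%), was not found in the 5 windows. A match describes the letters only. Of the 10 genes, 8 had an entry in the promoter table.

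Ccl5 was by far the most counted of the 10 genes. UMIs mark transcript ends, so counts of different genes are not scaled by length. Ccl5 took 664255 UMIs, 2.59% of all in the table, and was seen in 99.6% of cells, at 77.9 UMIs per positive cell. Ccl4 gave 43091 UMIs in 66.3% of cells, Ifng 7816 in 36.9%, Il16 3358 in 31.1%, Ccl3 2251 in 11.7%, Xcl1 2217 in 7.08% and Tnf 1691 in 12.9%. Tnfsf8, Tnfsf14 and Lta were sparse, with 440, 378 and 313 UMIs. All cells here are T cells, so no cell type that should lack these genes gauges free RNA, which matters most for Ccl5.

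Over all cells, no gene of the 10 passed between Crep and Cren, where 0.611% of the 9653 genes tested did (edgeR's quasi-likelihood test, Benjamini-Hochberg adjusted p under 0.05). The CC chemokines leaned higher in Crep and Xcl1, Lta and Tnfsf8 leaned lower, but groups overlapped in each of the 10, where 6.68% of all genes tested had groups that did not. There were 3 genes, Ccl4, Lta and Tnfsf8, with an unadjusted p under 0.05, as had 11.1% of all genes. The median log2 fold change was -0.13 over the 10 genes and -0.00059 over all genes tested.

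**Figure D1:**
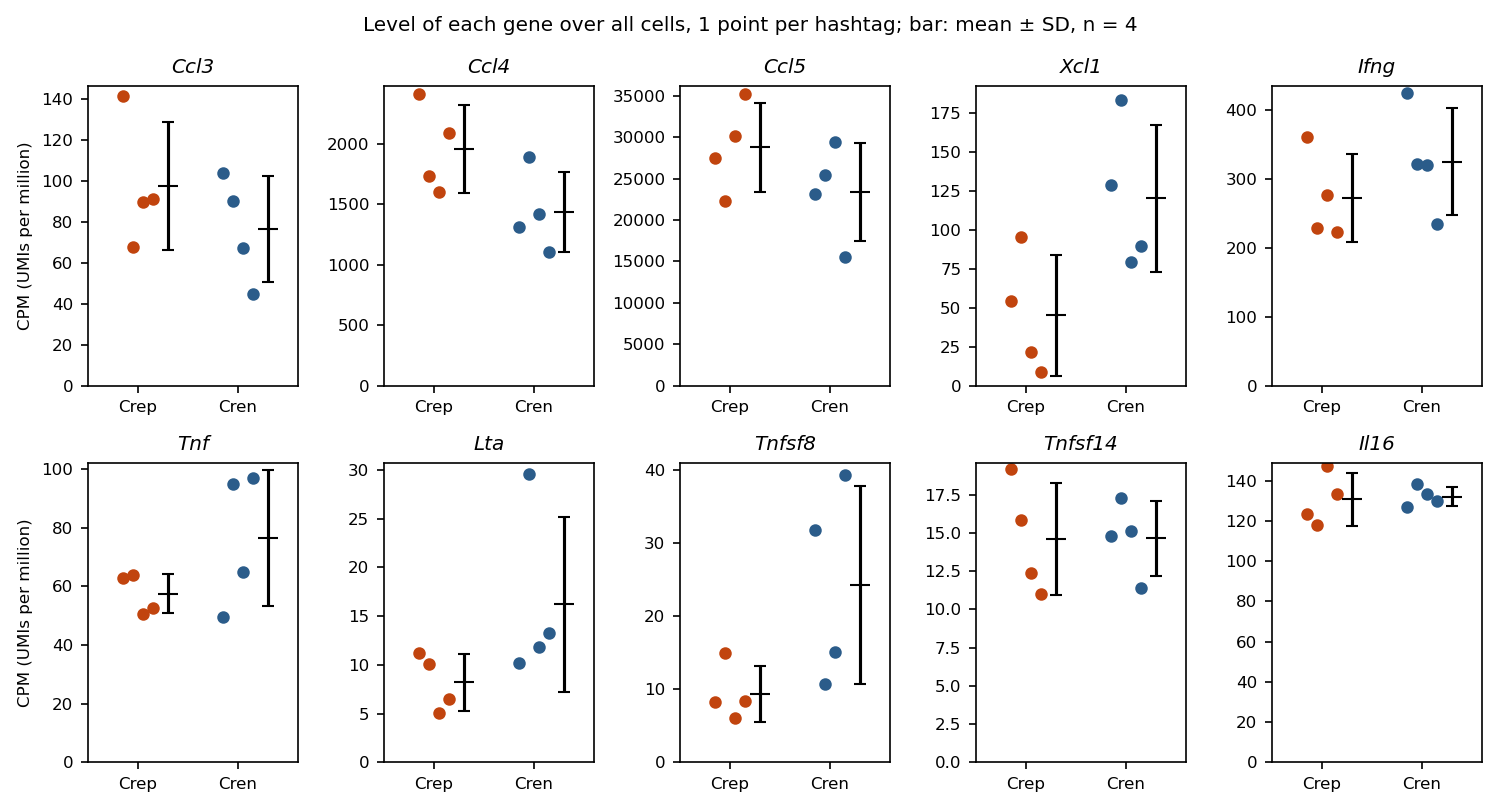
Level of each gene in CPM (vertical axes, linear, starting at 0) over all cells, with 1 point per hashtag, Crep left and Cren right, and bars for the mean ± SD (n = 4). In every panel the points of both groups overlap; Ccl4 averaged 1962 CPM in Crep hashtags, against 1435 CPM in Cren hashtags.

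Ccl4, a CC chemokine, had 2413, 1738, 1606 and 2090 CPM in Crep hashtags 1 to 4, against 1317, 1892, 1423 and 1108 CPM in Cren hashtags 1 to 4. Crep 1 and 4 were above every Cren hashtag, and Cren 2 lay above Crep 2 and 3. The log2 fold change was 0.45 ± 0.17 (SE, unadjusted p = 0.0247, edgeR adjusted p = 0.349). After each cell was thinned to 2000 UMIs, 65.8% ± 4.02 of cells in Crep and 53.9% ± 7.90 in Cren had a Ccl4 UMI (SD, n = 4), against 71.6% and 61.3% unthinned. Thinning left out 986 Crep and 937 Cren cells with fewer UMIs.

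Ccl3, a ligand of the receptor CCR1, averaged 97.6 ± 31.2 CPM in Crep hashtags, against 76.5 ± 26.1 CPM in Cren hashtags (SD, n = 4). Its values ran from 67.6 to 142 CPM in Crep and 44.7 to 104 CPM in Cren, and the log2 fold change was 0.34 ± 0.31 (SE, adjusted p = 0.774). It passed in a limma fit that gave fine clusters 0, 1, 2, 3, 5 and 6 equal weight and left out all other cells (log2 fold change 0.76, adjusted p = 0.0124). That fit used 7 hashtags, because Crep 4 had too few cells in 1 of the clusters. With limma alone over all cells the change was 0.34 (adjusted p = 0.773), and with edgeR without Crep 4 it was 0.36 (adjusted p = 0.836). Ccl5, also called RANTES, had 27433, 22290, 30100 and 35170 CPM in Crep, against 23132, 25435, 29429 and 15501 CPM in Cren (log2 fold change 0.30 ± 0.20, adjusted p = 0.661). The low Ccl5 value was that of Cren 4.

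Xcl1 had 54.6, 95.8, 21.9 and 9.11 CPM in Crep hashtags 1 to 4, against 129, 184, 79.7 and 89.8 CPM in Cren hashtags 1 to 4. Crep 1, 3 and 4 were below every Cren hashtag, and Crep 2 was above Cren 3 and 4. Hashtags of 1 group differed more than 10-fold, so that the log2 fold change of -1.37 had an SE of 0.66 (adjusted p = 0.526). It was -0.85 without the 73 cells of fine cluster 11 (adjusted p = 0.737) and -0.0016 with clusters weighted equally (limma adjusted p = 0.9997). As for Ccl3, the equally weighted fit left out Crep 4, the hashtag lowest in Xcl1, and several fine clusters, 11 among them. The edgeR log2 fold change of Xcl1 ran from -2.07 to -1.05 when each hashtag was left out in turn.

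Ifng averaged 272 ± 63.5 CPM in Crep hashtags, against 325 ± 77.5 CPM in Cren hashtags (SD, n = 4), with a range of 222 to 360 CPM in Crep and 234 to 423 CPM in Cren (log2 fold change -0.26 ± 0.21, adjusted p = 0.732). Its share of cells at 2000 UMIs was 30.1% in Crep and 30.3% in Cren. Tnf had 62.8, 63.9, 50.8 and 52.7 CPM in Crep and 49.5, 94.8, 64.8 and 97.0 CPM in Cren. Every Crep value thus lay between the lowest and the highest Cren values (log2 fold change -0.39 ± 0.22, adjusted p = 0.571). Il16 varied little: its mean was 131 ± 13.0 CPM in Crep hashtags, against 132 ± 4.87 CPM in Cren hashtags, and the 95% interval of its log2 fold change was -0.19 to 0.17.

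Among the sparse TNF-family ligands, Tnfsf8 had 8.27, 14.96, 6.03 and 8.35 CPM in Crep, against 31.9, 10.7, 15.1 and 39.4 CPM in Cren. Cren 2 was the one Cren hashtag below a Crep hashtag, Crep 2. The log2 fold change was -1.34 ± 0.51 (unadjusted p = 0.0364, edgeR adjusted p = 0.401). DESeq2 called it (adjusted p = 0.0362), and it was -0.56 with clusters weighted equally (limma adjusted p = 0.865). Lta had 11.2, 10.1, 5.08 and 6.45 CPM in Crep, against 10.2, 29.5, 11.8 and 13.3 CPM in Cren, and the highest of these is Cren 2. The log2 fold change was -0.95 ± 0.40 (unadjusted p = 0.0402, adjusted p = 0.416), and it was -0.50 without Cren 2. Tnfsf14 had like means, at 14.6 ± 3.67 CPM in Crep hashtags, against 14.6 ± 2.45 CPM in Cren hashtags, with a 95% interval of -0.39 to 0.39 for its log2 fold change.

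The annotation divides the cells into 12 fine clusters, numbered 0 to 11, that were made from the same cells and genes. Differences between clusters are therefore given as levels, with no test. By markers, fine cluster 0 (Itgae among its leading genes) was tissue-resident-like, fine cluster 5 stem-like, fine clusters 4 and 7 cytotoxic-like and fine cluster 8 (Tox, Pdcd1) exhausted-like. The others kept their numbers. Fine cluster 1 was led by heat shock genes (Dnajb1, Hspa1a), fine cluster 2 by Ahr and Itgae among others, fine cluster 3 by Socs2, Zfp683 and Gzmb, and fine cluster 6 by Nr4a1 and Nfkbia. Levels were ranked over the 9 clusters in which 3 or more hashtags had 20 cells or more. The hashtags averaged were not the same in each cluster. They were 4 Crep and 2 Cren in fine cluster 4, 4 Crep and no Cren in fine cluster 7, and 1 Crep and 4 Cren in fine cluster 8. Ranks of these clusters thus mix cluster and group. Fine clusters 9, 10 and 11 were not ranked, and 109 of the 112 cells of fine cluster 10 were of Cren 3.

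**Figure D2:**
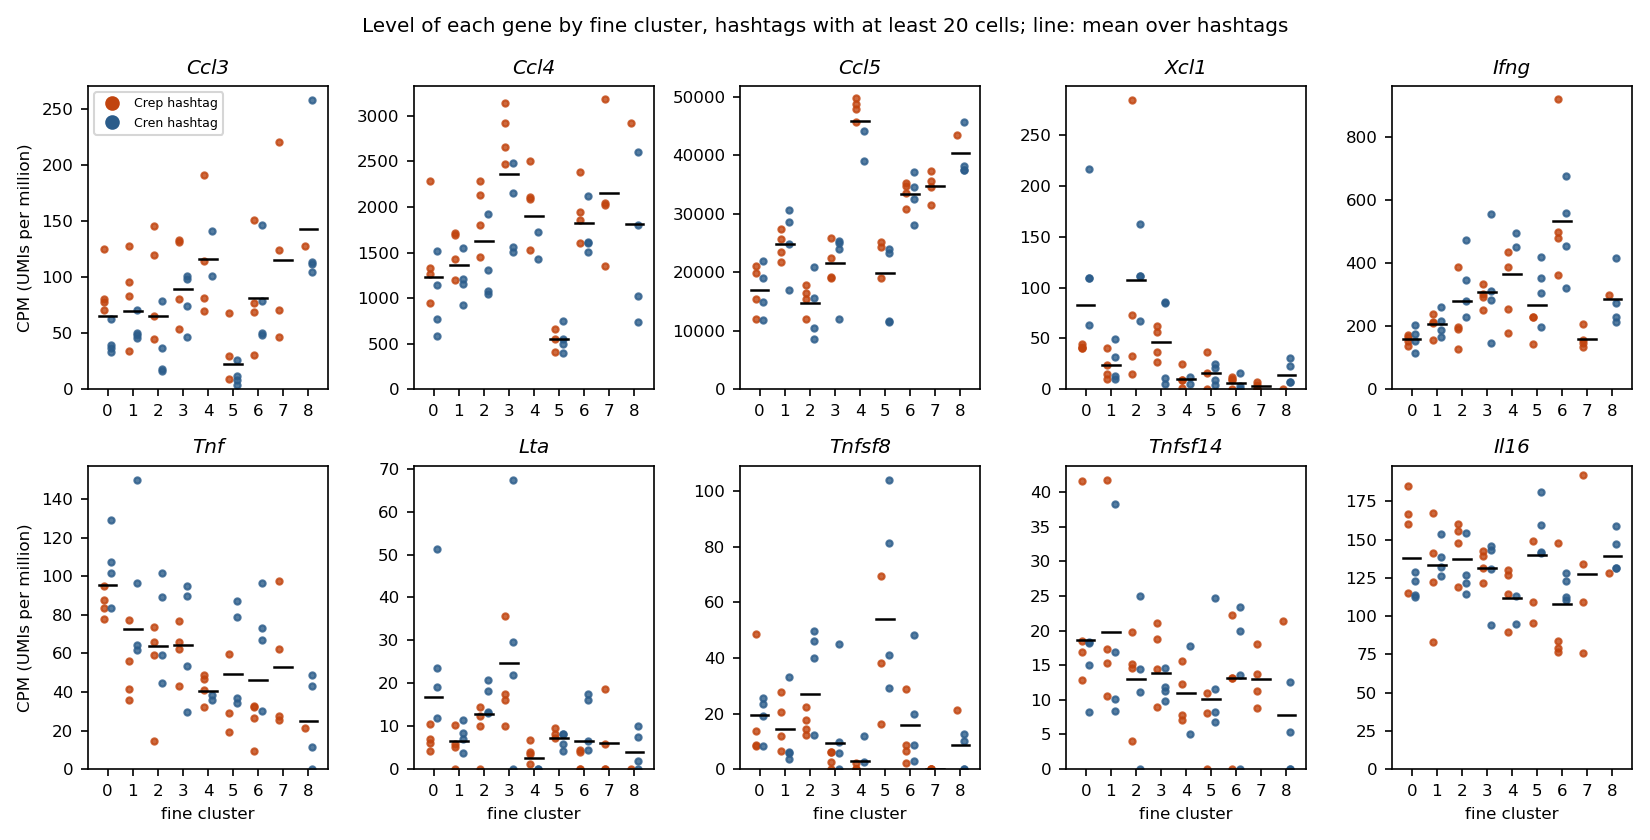
Level of each gene in CPM (vertical axes, linear) in fine clusters 0 to 8, with 1 point per hashtag of at least 20 cells (Crep left, Cren right in each pair) and a line for the mean over hashtags. Ccl5 is highest in fine cluster 4 and Tnfsf8 in fine cluster 5, where Ccl3 and Ccl4 are lowest.

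The genes did not share one producing cluster. Ccl5 was highest in cytotoxic-like fine cluster 4, at 45905 ± 3939 CPM (SD over 6 hashtags), and lowest in fine cluster 2, at 14680 ± 4070 CPM (8 hashtags). Its values in fine cluster 4 were 47966, 45716, 48767 and 49779.5 CPM in the Crep hashtags and 44151 and 39049 CPM in Cren 1 and 3. The second place, exhausted-like fine cluster 8 at 40468 CPM, differed from the first and from the third, fine cluster 7 at 34770 CPM, by more than the larger SD. The next gap of that size lay between fine cluster 6 (33326 CPM) and fine cluster 1 (24898 CPM), and neighbours below it were within 1 SD.

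Ccl4 was highest in fine cluster 3, at 2362 ± 593 CPM, and lowest in stem-like fine cluster 5, at 546 ± 128 CPM. Ccl3 was highest in exhausted-like fine cluster 8, at 143 ± 64.6 CPM over 5 hashtags, and also lowest in fine cluster 5, at 22.4 ± 22.1 CPM. For both genes the gap above fine cluster 5 was the only one between neighbours that exceeded the larger SD. In fine cluster 5 the 7 hashtags with at least 20 cells had 398 to 751 CPM of Ccl4, but Crep 4, left out with its 19 cells, had 1952 CPM. Of the cells of fine cluster 5, 31.9% had a Ccl4 UMI at 2000 UMIs per cell, against 75.8% in fine cluster 3. Across the 9 clusters, the gene most like Ccl3 among 2831 genes compared was Ccl4, with Pearson r = 0.91 of log2 mean CPM. This describes 9 points that share hashtags and the clustering.

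Xcl1 was highest in fine clusters 2 (107 ± 85.7 CPM) and 0 (83.3 ± 61.5 CPM), both with Itgae among their leading genes, and lowest in fine cluster 7 (2.79 ± 3.49 CPM), with no gap between neighbours beyond the larger SD. Ifng was highest in fine cluster 6, at 533 ± 191 CPM. Its values there were 920, 361, 478 and 497 CPM in the Crep hashtags and 560, 677, 453 and 321 CPM in the Cren hashtags, which overlap fully. Ifng was lowest in fine cluster 0, at 159 ± 26.6 CPM, and next to lowest in fine cluster 7, at 161 CPM. Cytotoxic-like fine cluster 4 had 366 CPM of Ifng, averaged over Crep and Cren hashtags. Fine cluster 7, also cytotoxic-like, was averaged over Crep hashtags only, so cluster and group cannot be told apart in this contrast. Tnf had its highest level in fine cluster 0 (95.7 ± 16.8 CPM), where Ifng was lowest, and its own lowest in fine cluster 8 (24.9 ± 20.7 CPM). No gap between neighbours in the order of Tnf was beyond the larger SD.

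Tnfsf8 was a leading gene of stem-like fine cluster 5, with 54.2 ± 31.5 CPM over 7 hashtags, and was listed at 0 in the 4 hashtags counted in fine cluster 7. Fine cluster 5 alone held 34.5% of the Tnfsf8 UMIs. Lta was highest in fine cluster 3 (24.8 ± 20.4 CPM) and Tnfsf14 in fine cluster 1 (19.8 ± 12.9 CPM), and neighbours in their orders were within the larger SD. Il16 was nearly even, between 140 ± 29.1 CPM in fine cluster 5 and 108 ± 25.9 CPM in fine cluster 6, a ratio of 1.30.

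Fine clusters 0, 1, 2, 3, 5 and 6 had cells enough to compare Crep with Cren inside the cluster. In 38 tests of a gene within a cluster, 1 passed: Ccl3 was higher in Crep in tissue-resident-like fine cluster 0, where 0.98% of the 5409 genes tested passed and 0.499% passed in that direction. The Crep hashtags 1 to 4 had 80.0, 77.8, 70.4 and 125 CPM of Ccl3 there, against 32.9, 62.8, 36.6 and 39.0 CPM in the Cren hashtags 1 to 4. All 4 Crep values lay above all 4 Cren values, and the share of all genes so separated in this cluster was not computed. Ccl3 thus averaged 88.3 ± 24.8 CPM in the Crep hashtags, against 42.8 ± 13.6 CPM in the Cren hashtags (SD, n = 4). On the log2 scale the difference was 0.89 ± 0.22 (SE), with an edgeR adjusted p of 0.0279. The values rest on few molecules, with 18 UMIs in Crep 4 and 12 in Cren 1. The call was lost with DESeq2 (adjusted p = 0.133) and without Crep 2, Crep 3, Crep 4, Cren 1, Cren 3 or Cren 4 (adjusted p = 0.0540 to 0.104), while the log2 fold change stayed between 0.80 and 1.16.

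**Figure D3:**
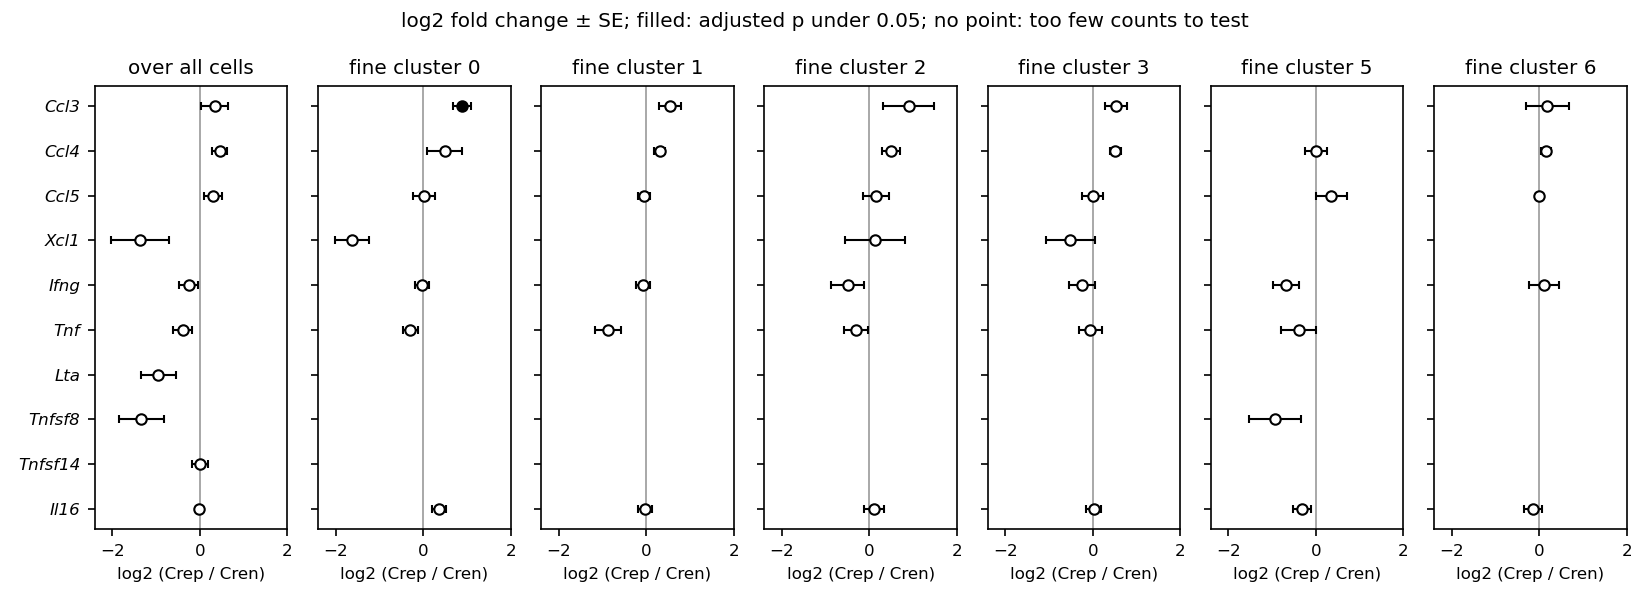
log2 fold change of Crep over Cren (horizontal axes) with its SE for each gene, over all cells and within the 6 tested fine clusters; filled points have an adjusted p under 0.05, and genes with too few counts have no point. The 1 filled point is Ccl3 in fine cluster 0, at 0.89.

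The fold changes of Ccl3 were positive in all 5 clusters where it was tested, from 0.18 in fine cluster 6 to 0.89 in fine clusters 0 and 2, and those of Ccl4 in all 6, from 0.0012 to 0.52. The clusters share hashtags, so these signs are not independent. The largest Ccl4 difference was in fine cluster 3, where its level was also highest. The Crep hashtags had 3147, 2658, 2922 and 2470 CPM there, against 1562, 2483, 2154 and 1503.5 CPM in the Cren hashtags. Only Cren 2 reached the lowest Crep value (log2 fold change 0.52 ± 0.13, unadjusted p = 0.000514, adjusted p = 0.249). No gene of the 4548 tested passed in that cluster, and 5.74% had an unadjusted p under 0.05. Without Cren 2, the Ccl4 difference passed in fine cluster 3 (adjusted p = 0.0260) and in fine cluster 2 (adjusted p = 0.00474), as did Ccl3 in fine cluster 2 (adjusted p = 0.0262). Leaving out any other hashtag gave none of these calls. Cren 2 was the Cren hashtag nearest to Crep in fine cluster 3, so leaving it out separates the groups there and adds no support. For Ccl5 the fold changes within clusters ran from -0.05 to 0.35 and none passed.

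Xcl1 in fine cluster 0 had 44.2, 40.8, 40.6 and 41.6 CPM in Crep hashtags 1 to 4, against 63.1, 217, 110 and 110 CPM in Cren hashtags 1 to 4. The groups did not overlap, and the Crep values lay within 4 CPM of one another while the Cren values spanned more than a 3-fold range. The share of all genes whose groups do not overlap in this cluster was not computed. The log2 fold change was -1.62 ± 0.39 (unadjusted p = 0.00311, edgeR adjusted p = 0.160). DESeq2 called it (adjusted p = 0.00102), as did edgeR without Cren 1 (adjusted p = 8.2e-05) or without Cren 2 (adjusted p = 0.00184). Cren 1 had the Cren value nearest to Crep. Neither limma-voom nor edgeR without any other hashtag called it. In fine cluster 2, where its level was highest, Xcl1 showed no such order, with 73.6, 285, 32.8 and 14.6 CPM in Crep and 111, 163, 112 and 66.9 CPM in Cren.

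Tnf had negative fold changes in all 5 clusters tested, from -0.87 in fine cluster 1 to -0.05 in fine cluster 3. In fine cluster 1 it had 77.4, 56.0, 36.1 and 41.4 CPM in Crep and 64.2, 150, 61.7 and 96.3 CPM in Cren (unadjusted p = 0.00740, edgeR adjusted p = 0.527), and 0.173% of genes passed there. Ifng was negative in 5 of 6 clusters. In stem-like fine cluster 5 it had 229, 230 and 144 CPM in Crep hashtags 1 to 3, against 198, 353, 419 and 305 CPM in Cren hashtags 1 to 4 (log2 fold change -0.68 ± 0.30, adjusted p = 0.485). Of the fits that left out a hashtag, only that without Cren 1 called this difference (log2 fold change -0.91, edgeR adjusted p = 0.00424). Cren 1 was the one Cren hashtag inside the Crep range, so leaving it out separates the groups and adds no support. Tnfsf8, tested in fine cluster 5 only, was at -0.93 ± 0.60 on the log2 scale (adjusted p = 0.690). Of the genes tested, 1.19% passed in fine cluster 5, 0.28% in fine cluster 2 and 0.0269% in fine cluster 6.

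Whether the effect differed between the largest tested clusters, 0 and 1, was tested as an interaction. No gene of the 10 passed, where 0.134% of 6703 genes did, and 1 of the 10, Il16, had an unadjusted p under 0.05 (0.0449), as did 6.03% of all. For Ccl3 the difference of log2 fold changes was 0.28 ± 0.37 (95% interval -0.49 to 1.05). A Ccl3 effect in fine cluster 0 that is not in fine cluster 1 was thus not shown.

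Expression of several genes rested on few cells. The 86 cells with the most UMIs of a gene, 1% of all, held 66.2% of the Xcl1 UMIs, 52.7% of Lta, 40.9% of Ccl3, 24.0% of Ifng and 17.7% of Ccl4, against 4.53% of Ccl5 and 8.34% of Il16. This share is raised for any gene seen in few cells. Lta had a UMI in 234 cells, and Tnfsf8 (44.5%) and Tnfsf14 (34.1%) in 330 and 335 cells. The share expected from sparseness was not computed. A single cell reached 375 UMIs of Ccl4, 270 of Ifng, 115 of Xcl1 and 81 of Ccl3, while the median positive cell had 3 UMIs of Ccl4 and 1 of each of the others. Cells with at least 10 Ccl4 UMIs numbered 1257 and made 68.3% of its UMIs. They were 22.7%, 17.2%, 14.3% and 13.7% of cells in Crep hashtags 1 to 4 and 10.0%, 17.6%, 12.5% and 9.89% in Cren hashtags 1 to 4, which overlap.

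**Figure D4:**
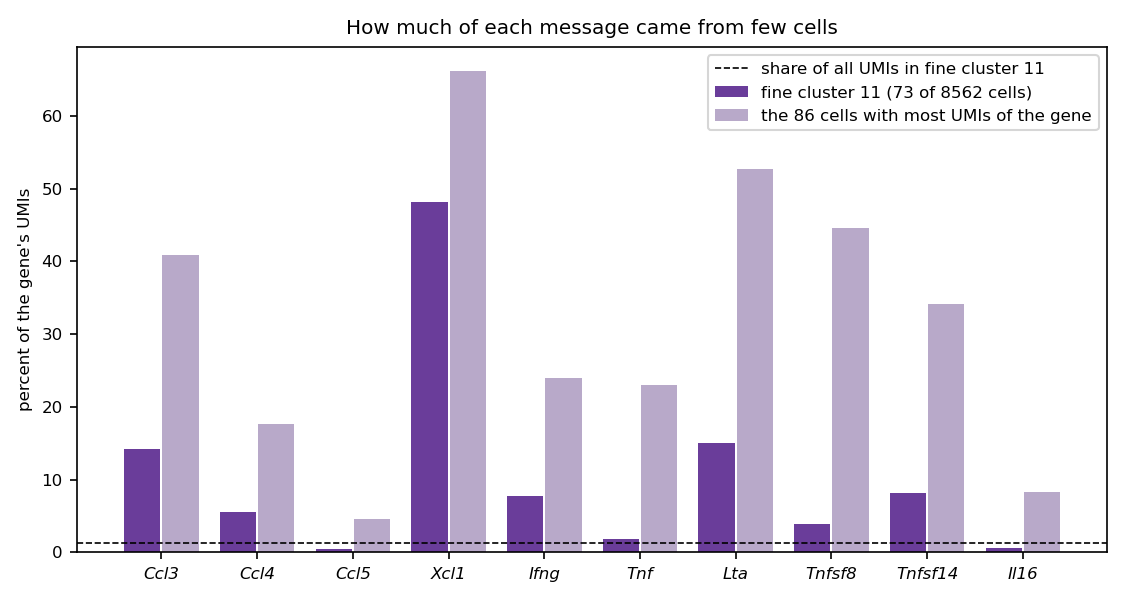
Percent of each gene's UMIs (vertical axis, from 0) found in fine cluster 11 (73 of 8562 cells, dark bars) and in the 86 cells with most UMIs of that gene (light bars); the dashed line marks the 1.25% of all UMIs that fine cluster 11 holds. Fine cluster 11 holds 48.2% of the Xcl1 UMIs and 0.430% of the Ccl5 UMIs.

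Fine cluster 11, on which the choice of the 5 promoters printed above rests, had higher levels of most of these genes than the other cells. It held 73 cells, 0.853% of all, with a median of 4081 UMIs per cell against 2756 in the other cells. It was led by Xcl1, Penk (proenkephalin), Ccl1 and Tnfrsf9, the co-stimulatory receptor 4-1BB, with Ccl3 sixth. Because these genes shaped the cluster, their levels describe it and test nothing. Xcl1 was at 3339 CPM there and 45.4 CPM in all other cells, with a UMI in 62 of the 73 cells. Of the 49 cells with at least 10 Xcl1 UMIs, 32 were in this cluster. Ccl3 was at 997 CPM against 76.4 CPM elsewhere, Lta at 147 against 10.5 CPM, Ifng at 1882 against 285 CPM, Tnfsf14 at 96.9 against 13.7 CPM and Ccl4 at 7484 against 1609 CPM. Fewer cells had these genes than Xcl1: Ccl3 was in 24 of the 73 cells, Lta and Tnfsf14 in 16 each, Ifng in 40 and Ccl4 in 49. At 2000 UMIs per cell, Ccl4 was in 58.8% of the cluster and 59.5% of all cells. The shares of Ccl3 (26.5% against 9.14%), Ifng (44.1% against 30.3%), Lta (16.2% against 2.08%) and Tnfsf14 (13.2% against 2.88%) were higher in the cluster. One cell held 270 of the 602 Ifng UMIs of the cluster, and without it, a choice made after seeing the data, Ifng was at 1061 CPM, 3.72 times its level elsewhere. Leaving out the highest cell of each gene in turn gave 753 CPM of Ccl3, 3006 CPM of Xcl1, 109 CPM of Lta and 79.1 CPM of Tnfsf14, each still more than 5 times the level elsewhere. Ccl5 ran opposite, at 8938 CPM against 26147 CPM elsewhere, and so did Il16, at 59.4 against 132 CPM. All 73 cells were given their hashtag by both classifiers; no doublet caller was run. The cluster had 2 to 28 cells per hashtag, too few to compare Crep with Cren inside it, and its size was not compared because its leading genes are among those studied.

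Without fine cluster 11, Xcl1 averaged 31.6 ± 22.8 CPM in Crep hashtags, against 59.3 ± 36.7 CPM in Cren hashtags (SD, n = 4), and none of the 10 genes passed over all cells. Lta kept its direction, at 7.39 ± 2.15 CPM in Crep hashtags, against 13.7 ± 5.33 CPM in Cren hashtags (log2 fold change -0.86, unadjusted p = 0.00734, adjusted p = 0.231).

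Single cells shared the genes to unequal degrees. At 2000 UMIs per cell, Ccl4 was seen in 84.8% of the 607 cells with a Ccl3 UMI and in 57.0% of cells without one, and it was higher beside Ccl3 in 8 of 8 hashtags. Conversely, 13.0% of the 3951 Ccl4-positive cells had a Ccl3 UMI, against 3.42% of the others. Ifng was seen in 39.2% of Ccl3-positive cells and 29.4% of the others, and in 33.8% of Ccl4-positive cells and 25.0% of the others, each higher in 8 of 8 hashtags. Tnfsf8 was the reverse. Only 39.1% of the 184 Tnfsf8-positive cells had a Ccl4 UMI, against 60.1% of the others, and the share was higher in 0 of the 7 hashtags with at least 10 such cells. Xcl1 was found beside Lta more than apart from it, in 15.2% of 138 Lta-positive cells and 5.66% of the others (higher in 6 of 7 hashtags), which includes fine cluster 11. Pairs were counted over all clusters together, not within a cluster. Fine cluster 5 held 53 of the 184 Tnfsf8-positive cells, and 31.9% of its cells had a Ccl4 UMI. The parts of cluster mix, free RNA and depth differences left after thinning were not tested.

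Of Ccl3, Xcl1, Ifng and Tnf counted together, 55.4% of cells at this depth had none, 35.5% had 1, 8.04% had 2, 0.889% had 3 and 0.121% had all 4. Cells with none were 56.4% in Crep and 54.4% in Cren on average.

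The binding partners of these proteins were looked at next. Of 13 listed receptors and partners, 11 were in the table and 7 were tested, of which 2 were higher in Crep and none lower (background 0.342% and 0.269% of genes tested). Cd4, the partner of IL-16 but also the lineage gene of helper T cells, gave 85 UMIs in Crep and 4 in Cren, with Cren 3 and 4 at 0 (edgeR adjusted p = 0.000515). The 5 CD4 T cell markers together, Cd4 included, were at 19.0 to 29.8 CPM in Crep and 29.5 to 79.1 CPM in Cren. In Cren this sum was led by Ikzf2 (66.3 CPM in Cren 2) and Tnfrsf4 (25.9 CPM in Cren 1), which were also raised in fine clusters 8 and 11. Values of Cd40lg and Foxp3 overlapped between the groups. The sum is therefore no gauge of CD4 T cells, and the source of the Cd4 UMIs was not tested. Of the listed genes that did not pass, Tnfrsf14, which encodes the LIGHT receptor HVEM, had the smallest p, at 4.70 ± 1.75 CPM in Crep hashtags, against 7.46 ± 0.816 CPM in Cren hashtags (log2 fold change -0.68, edgeR adjusted p = 0.328). Ifngr1, the most abundant receptor of the list, averaged 898 ± 77.5 CPM in Crep hashtags, against 876 ± 78.4 CPM in Cren hashtags (log2 fold change 0.04).

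Other ligands of T cells did not pass: 24 of 31 listed genes were in the table and 15 were tested, 0 higher and 0 lower. Those with the smallest p were Csf1, a growth factor of macrophages, at 8.61 ± 2.04 CPM in Crep hashtags, against 4.91 ± 0.838 CPM in Cren hashtags (log2 fold change 0.79, adjusted p = 0.192), Tnfsf13b, which encodes BAFF (0.61, adjusted p = 0.284), and Tnfsf10, which encodes TRAIL (0.32, adjusted p = 0.331). Ltb, the partner of lymphotoxin α, was the most abundant, at 644 ± 94.6 CPM in Crep hashtags, against 638 ± 101 CPM in Cren hashtags. Of 17 regulators of cytokine transcription or mRNA decay, all tested, 1 was higher, Bcl6 itself, and 0 were lower. The next were Stat4, which carries the IL-12 signal towards Ifng, at 180 ± 11.7 CPM in Crep hashtags, against 224 ± 14.3 CPM in Cren hashtags (log2 fold change -0.32, adjusted p = 0.0779), and Rel, an NF-κB subunit, at 82.9 ± 14.1 CPM in Crep hashtags and 113 ± 11.9 CPM in Cren hashtags (log2 fold change -0.44, adjusted p = 0.102). Zfp36l2, an mRNA decay factor and the most abundant of them, had a log2 fold change of -0.02.

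Of 18 interferon-γ target genes, 17 were tested and 0 passed in either direction. Their median log2 fold change was 0.19, and 14 of 17 were positive, while Ifng itself was at -0.26. Psmb8, an immunoproteasome subunit, averaged 1251 ± 80.1 CPM in Crep hashtags, against 1019 ± 120 CPM in Cren hashtags (log2 fold change 0.30, adjusted p = 0.181). Psmb9, a further subunit, was at 0.26 on the log2 scale (adjusted p = 0.269). B2m, the most abundant target, was at -0.03.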

How the data were processed

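The authors deposited raw UMI counts per gene and cell, with an annotation of each cell that gives its hashtag, group and cluster. Mitochondrial, ribosomal and heat shock UMIs are given there as a percent per cell, per the file headers. Per the submitters' processing notes, the tools were Seurat 4.3.0, Cell Ranger 7.0.0 and bcl2fastq 2.20.0.422 and the build was mm10, with no role stated. No cell was removed further and no doublet caller was run. The genes and the lists around them were chosen with earlier results of these data known.

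UMI counts were summed per hashtag, over all cells or within a fine cluster, for hashtags with at least 20 cells and clusters with at least 3 such hashtags in each group. The sums were tested with edgeR 4.0.16 (quasi-likelihood, TMM, filterByExpr, robust) as Crep minus Cren, Benjamini-Hochberg adjusted over all genes tested at 0.05, with limma 3.58.1 and DESeq2 1.42.0 as alternatives (R 4.3.3). On simulated counts with 200 genes changed by a log2 fold change of 1, the step over all cells (9528 genes) recovered 98.5%, and 6.6% of its calls were false. The changed genes were drawn only from those with at least the median count. Recovery of sparser genes was thus not measured. CPM are counts per 1000000 UMIs, taken over a hashtag or over the part of a hashtag in a cluster. SE belong to log2 fold changes and SD to levels. Shares of cells used cells thinned to 2000 UMIs with a fixed seed. Cluster names rest on markers that reached 1.5 times the other cells' CPM and 5% of cells. Some clusters with raised markers were not named. Among these, fine cluster 9 had Itgae, Cd69 and Itga1 raised, and fine cluster 11 had Pdcd1, Lag3 and Havcr2 raised but not Tox or Tigit. Fold changes are on the log2 scale. Named around the 10 genes were, from each list, those past the threshold, the 3 with the smallest p and the most abundant. For likeness, genes with at least 50 CPM were compared on log2(mean CPM + 1), and the 3 most like each gene were sought. Some genes that these rules name are not reported here. Alternatives are given at the end. Depth differed by hashtag between 2635241 and 4201265 UMIs, and replicates of a group differed beyond counting noise (chi-square per degree of freedom 3.01 to 10.8).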

Additional observations from a re-analysis of the deposited data

Results flagged for a closer look

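In 112 groups of 4 hashtags, 5 had a hashtag far from the other 3 of its group. A check of this kind flags about 1 in 20 groups by chance. Lta over all cells was 29.5 CPM in Cren 2. The share of cells with an Xcl1 UMI at 2000 UMIs per cell was 14.0% in Cren 2, while Cren 1, 3 and 4 had 5.46%, 5.33% and 6.30%. Ccl4 in fine cluster 6 was 2123 CPM in Cren 2, the highest of its group. Ccl5 in fine cluster 3 was 11950 CPM in Cren 4, the lowest of its group. Il16 in fine cluster 6 was 148 CPM in Crep 3, the highest of its group. No difference of effects between fine clusters 0 and 1 passed for any of the 10 genes.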

How the results depend on the processing

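Over all cells, the number of the 10 genes that passed was 0 with edgeR, with each hashtag left out in turn and with most other settings. It was 1 with DESeq2 (Tnfsf8) and 1 with the tested clusters weighted equally in limma (Ccl3). Within fine clusters it was 1, against 6 without a filter on low counts, 0 to 5 with a hashtag left out, and 0 for the difference of effects in each setting run. Leaving out fine cluster 11, or a gene's highest cell in it, was chosen after seeing the data. Fold changes near 0 changed sign. Tnfsf14 was at -0.0010 with DESeq2 size factors, -0.015 with limma-voom, -0.0037 without cells not given their hashtag by both classifiers, -0.059 without cells with a marker of another cell type and -0.14 to 0.11 with a hashtag left out, and Il16 was at -0.083 to 0.027 with a hashtag left out. Of the 180 values computed for the 10 fold changes over all cells, 166 kept their direction and side of the threshold. All 40 alternative levels and shares moved by less than 1 SD. Deviations of same-numbered hashtags correlated at -0.04, 0.14, 0.18 and 0.13, and 3 of 4 Crep hashtags correlated best with their own number. These values do not settle whether hashtag numbers pair the groups, and the main tests took the hashtags as unpaired. With the replicate block, 0 of the 10 genes passed over all cells, Tnfsf14 was at -0.0053, and 6 passed within clusters: Ccl3, Xcl1 (adjusted p = 0.00017) and Lta (0.0145) in fine cluster 0, Ccl4 in fine clusters 1 (0.0102) and 3 (0.00121) and Ifng in fine cluster 5 (0.0416). The 6 without a filter on low counts were Ccl3, Xcl1 (1.1e-10) and Lta (0.00248) in fine cluster 0, Ccl4 in fine clusters 2 (0.0335) and 3 (0.00378) and Ifng in fine cluster 5 (0.0103). How many of all genes passed within clusters was not counted for these alternative settings, so the counts of 6 have no background beside them. Over all cells, 59 of all genes passed in the main fit. The number was 145 with DESeq2, 37 with limma-voom, 118 with the block and 26 without fine cluster 7. It was 25 without cells with other markers, 30 with clusters weighted equally and 14 to 121 with a hashtag left out. The cause was not tested. An alternative without expanded T cell clones was not run, as the annotation used here marks none. Lta, Tnfsf8 and Tnfsf14, with 313 to 440 UMIs in all, were too sparse for a test in most clusters.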
